A study of Homo sapiens with 4 samples.

Results

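The genes that encode the subunits of RNA polymerases I, II and III and of Mediator were followed between the nuclear and the cytoplasmic RNA of HEK293T, a cell line from human embryonic kidney that expresses the large T antigen of SV40. Members were the protein-coding genes whose symbol begins with POLR1, POLR2 or POLR3 and a letter, or with MED and a digit, with hyphenated readthrough symbols left out. The rule found 62 genes among the 51740 gene rows of the comparison, 32 of them POLR genes and 30 MED genes, and all 62 were among its 23333 tested genes. Wildtype HEK293T cells were crosslinked with formaldehyde and lysed in a hypotonic buffer with EDTA and without MgCl2, and nuclei were parted from cytoplasm. There were 2 nuclear and 2 cytoplasmic libraries, labelled as biological replicates, each from 400 ng of DNase-treated RNA with ribosomal RNA depleted, strand kept and both ends read for 100 nt. All 4 libraries come from the same crosslinked, untreated line, so nothing here speaks of other cells or of uncrosslinked RNA. With an equal mass of RNA in every library, a difference is relative to the other RNA of each fraction and depends on how the libraries are scaled. Fewer cells or less RNA per cell cannot be told apart from it.

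RNA polymerase I transcribes the large ribosomal RNA precursor, RNA polymerase II the mRNAs and many noncoding RNAs, and RNA polymerase III the tRNAs, the 5S ribosomal RNA and other short RNAs. Each polymerase is built on a pair of large subunits that form the active site. Around them sit small subunits, some found in all 3 enzymes and some particular to 1 of them. Mediator is a large complex that links DNA-bound activators to RNA polymerase II, with head, middle and tail modules held on the MED14 scaffold and a separable kinase module.

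The values of single libraries were rebuilt as whole counts from the deposited mean, fold change and error, as described under the processing of the data. Libraries are called A and B within a fraction, A having the larger size factor, and the letters are not the replicate numbers. A normalised count is a library's count for a gene divided by that library's size factor, and it follows gene length, so levels of different genes are not compared. Estimated total counts were 24319689.0 and 21567507.0 in nuclear libraries A and B and 24481541.0 and 21660855.0 in cytoplasmic libraries A and B. A member had between 75 and 15544 counts in a library. The nuclear RNAs MALAT1 and NEAT1 had log2 fold changes, cytoplasm over nucleus, of -3.47 and -3.09. Of the HEK293T markers, VIM, NEFM and NEFL had means of 18261, 16264 and 13195 normalised counts and PAX2 of 63.1, while ALB, HBB, PTPRC and GFAP, which mark other cells, had means of 0.793, 0.293, 1.76 and 19.6.

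POLR2J and POLR2J3 are copies of the gene for the polymerase II subunit RPB11 and lie on the minus strand of chromosome 7 (hg38), POLR2J at chr7:102473128-102478922 and POLR2J3 at chr7:102562133-102572583. Their coding sequences are shown because the copies went in opposite directions between the fractions while most of their coding bases are the same. In the MANE Select transcripts of GENCODE 44, the representative transcript of each gene, POLR2J has 351 coding bases and POLR2J3 has 345. All 90 bases of coding exon 2 were the same in both. In coding exon 3, at chr7:102474361-102474535 and chr7:102568010-102568184, 174 of 175 bases were the same. The coding part of exon 4, at chr7:102473652-102473684 and chr7:102567054-102567083, had 10 identical positions among 34 aligned ones. Letters are 5′ to 3′ on the minus strand, and capitals mark bases that differ from the other copy.
POLR2J exon 3: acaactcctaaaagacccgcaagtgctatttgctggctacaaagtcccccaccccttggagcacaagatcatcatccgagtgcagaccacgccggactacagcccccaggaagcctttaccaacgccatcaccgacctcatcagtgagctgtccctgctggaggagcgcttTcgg
POLR2J3 exon 3: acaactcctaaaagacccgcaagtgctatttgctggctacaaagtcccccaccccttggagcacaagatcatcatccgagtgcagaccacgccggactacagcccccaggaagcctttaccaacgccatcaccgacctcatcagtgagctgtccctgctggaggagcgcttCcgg
POLR2J exon 4: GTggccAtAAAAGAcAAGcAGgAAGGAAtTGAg
POLR2J3 exon 4: ACgTgcctGCTTCCcCTTcgCCTTCtGCCg
Reads from these shared coding bases that miss every differing base match both copies, so whether they were counted, and for which copy, is uncertain.

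POLR2J had 177 and 157 normalised counts in nuclear libraries A and B and 1022 and 948 in cytoplasmic libraries A and B. POLR2J3 had 558 and 538 in the nuclear libraries and 195 and 216 in the cytoplasmic ones. Each copy's fractions were well apart, POLR2J higher in the cytoplasm and POLR2J3 in the nucleus. POLR2J rose to a log2 fold change of 2.56 (SE 0.17) in cytoplasm over nucleus, with a DESeq2 adjusted p of 9.05e-50 in the authors' deposited table. POLR2J3 was at -1.42 (SE 0.19, DESeq2 adjusted p 3.65e-13), or 2.67-fold higher in the nucleus. The POLR2J3 locus of 10.5 kb extends beyond its MANE Select transcript of 5.62 kb, and POLR2J3 is the only POLR gene under 20 kb that was called nuclear.

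On the authors' scale most polymerase subunit genes were higher in the cytoplasmic than in the nuclear libraries, while Mediator subunit genes went both ways. Introns were counted with exons, so these are not values of spliced mRNA alone. At a DESeq2 adjusted p of at most 0.01 in the authors' deposited table, 26 of 32 POLR genes were higher in the cytoplasm, 3 were higher in the nucleus and 3 were not called. Of the 30 MED genes, 16 were higher in the cytoplasm, 10 in the nucleus and 4 were not called. The background is 25.9% of all tested genes called cytoplasmic and 26.5% called nuclear, and 35.6% and 28.4% of the 15336 tested protein-coding genes. The share of POLR genes called cytoplasmic was 81.2% and that of MED genes 53.3%, and the shares called nuclear were 9.38% and 33.3%. The median log2 fold change was 1.69 over POLR genes and 0.52 over MED genes, a difference of 1.17, beside 0.11 over tested protein-coding genes and -0.12 over all tested genes. Genes are not replicates, so the difference between the families carries no test. The median standard error of a member was 0.14, and of a tested protein-coding gene 0.17.

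**Figure D1:**
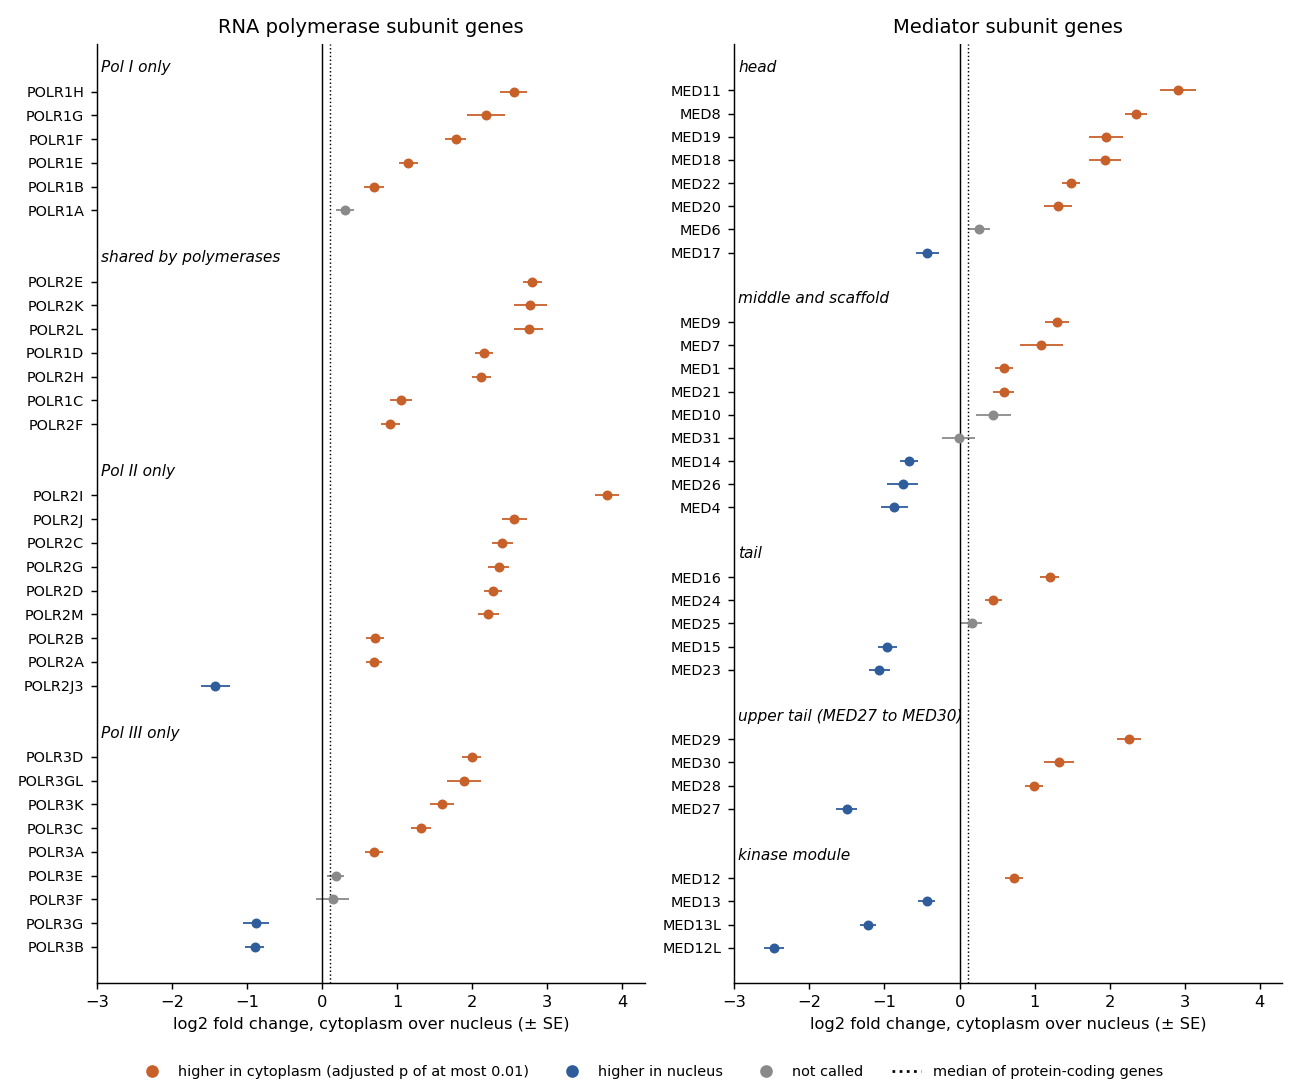
Log2 fold change of cytoplasm over nucleus for 61 of the 62 members, with bars of 1 standard error, grouped by complex and module; colours give the call at an adjusted p of at most 0.01, the solid line is 0 and the dotted line is the median of tested protein-coding genes (0.11). POLR points lie mostly right of the lines, from -1.42 for POLR2J3 to 3.79 for POLR2I, and MED points run from -2.47 for MED12L to 2.91 for MED11.

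These counts depend on the scale between fractions. Size factors were 1.34 and 1.19 in the nuclear libraries and 0.853 and 0.755 in the cytoplasmic ones, although totals were alike. Scaling to equal library totals, which compares a gene's share of each library's counts, shifts every log2 fold change by -0.66. On that scale 20 POLR genes were cytoplasmic and 5 nuclear, and 10 MED genes were cytoplasmic and 12 nuclear, against backgrounds of 22.4% and 42.6% of tested protein-coding genes. The medians became 1.03 for POLR and -0.14 for MED genes, while the gap between the families, which no shift can alter, stayed at 1.17. Where the sign or the call of a member changed on this scale, its value on equal totals is given with it.

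The largest subunits of each polymerase showed small differences. POLR2A encodes RPB1, the catalytic subunit of RNA polymerase II with its heptad-repeat tail, and had 4518 and 4653 normalised counts in the nuclear libraries against 6892 and 7888 in the cytoplasmic ones. POLR2B, for its partner RPB2, had 2090 and 2271 against 3356 and 3722. The cytoplasmic libraries were higher in both genes with no overlap. The log2 fold changes were 0.69 (SE 0.11, DESeq2 adjusted p 2.75e-09) and 0.70 (SE 0.12, DESeq2 adjusted p 1.15e-08). POLR1B, the second large subunit of RNA polymerase I, had 1452 and 1493 nuclear and 2172 and 2583 cytoplasmic normalised counts and a log2 fold change of 0.69. POLR3A, the largest subunit of RNA polymerase III, had 2431 and 2446 against 3723 and 4173, also 0.69. All 4 of these genes were thus between 1.61- and 1.62-fold higher in the cytoplasm on the authors' scale. On equal totals their log2 fold changes were 0.03, 0.04, 0.03 and 0.03 for POLR2A, POLR2B, POLR1B and POLR3A, and none was called.

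The remaining large subunits stood lower. POLR1A, the largest subunit of RNA polymerase I, had 3157 and 3182 normalised counts in the nuclear libraries and 3588 and 4254 in the cytoplasmic ones. Its log2 fold change of 0.31 (SE 0.12) missed the threshold, with a DESeq2 adjusted p of 0.0200. It was called cytoplasmic, at 0.42, when cytoplasmic library A was left out, and stood at -0.36 on equal totals, where it was called nuclear. POLR3B, the second large subunit of RNA polymerase III, was the large subunit called nuclear, with 1591 and 1553 nuclear against 814 and 876 cytoplasmic normalised counts. The libraries of POLR3B were 1.86-fold higher in the nucleus on average, a log2 fold change of -0.90 (SE 0.13, DESeq2 adjusted p 3.65e-11). POLR3B spans 152 kb on chromosome 12, the longest POLR locus, with a longest MANE Select intron of 32.4 kb. The 6 large subunits had a median of 0.69 and the other 26 POLR genes a median of 2.05.

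The subunits shared between polymerases were cytoplasmic in 7 of 7 cases, with a median log2 fold change of 2.16. POLR2E, which encodes RPB5 of all 3 enzymes, had 599 and 648 nuclear against 4015 and 4677 cytoplasmic normalised counts, a log2 fold change of 2.80 (SE 0.13, DESeq2 adjusted p 7.43e-104). POLR2K, for the zinc-binding RPB12, had 76.1 and 99.2 against 640 and 553. POLR2L, for RPB10, had 159 and 138 against 882 and 1117. In each of the 3 genes the lowest cytoplasmic library was several times the highest nuclear one, and the log2 fold changes of POLR2K and POLR2L were 2.77 and 2.75. POLR2H, for RPB8, had 438 and 437 nuclear and 1844 and 1956 cytoplasmic normalised counts, at 2.12. POLR2F, for RPB6, had 908 and 808 against 1577 and 1638, at 0.91, the lowest of the 7. The pair POLR1C and POLR1D forms the assembly platform of polymerases I and III that RPB3 and RPB11 form in polymerase II. POLR1D had 702 and 688 nuclear and 3134 and 3068 cytoplasmic normalised counts (log2 fold change 2.16), and POLR1C had 444 and 510 against 946 and 1028 (1.05). On equal totals POLR1C and POLR2F, at 0.39 and 0.24, were no longer called. In the annotation used here for spans, which is later than the authors', other genes cover 88.1% of the POLR1C locus. The authors took stretches shared by genes out of their own annotation before counting. How much of the POLR1C locus they counted is therefore uncertain, as for other loci given with such a percentage.

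Small subunits found only in RNA polymerase II held the highest value of all members. POLR2I encodes RPB9, a zinc-binding subunit with a part in transcript cleavage and fidelity, and its 1.50 kb gene is the shortest member. It had 128 and 137 normalised counts in the nuclear libraries and 1781 and 1898 in the cytoplasmic ones, 13.9-fold higher in the cytoplasm, with no overlap. The log2 fold change was 3.79 (SE 0.16, DESeq2 adjusted p 4.34e-130), and 61.7% of its locus is covered by other annotated genes. POLR2C, the partner of POLR2J, was at 2.40. The stalk subunits POLR2D and POLR2G were at 2.28 and 2.35, and POLR2M, found in a form of the polymerase that depends on Mediator, was at 2.21. Apart from the large subunits and POLR2J3, the 6 genes of this group therefore lay between 2.21 and 3.79.

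RNA polymerase I subunits were cytoplasmic in 5 of 6 cases, with POLR1A the exception. POLR1H, a zinc-ribbon subunit, was at 2.55, the dimer POLR1G and POLR1E at 2.18 and 1.15, and POLR1F of the stalk at 1.78. POLR1G had the widest replicate gap of the members, with 597 and 364 normalised counts in cytoplasmic libraries A and B against 105 and 107 in the nuclear ones, and other genes cover 83.1% of its locus. Both cytoplasmic libraries of POLR1G were still above both nuclear ones.

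RNA polymerase III subunits were the most divided of the polymerase groups, with 6 of 10 cytoplasmic, 2 nuclear and 2 not called. POLR3G and POLR3GL encode alternative versions of the same subunit, and only 1 of the 2 is built into a given enzyme. POLR3GL had 129 and 129 nuclear against 544 and 413 cytoplasmic normalised counts, a log2 fold change of 1.89 (SE 0.22, DESeq2 adjusted p 2.32e-17). POLR3G had 698 and 603 nuclear against 345 and 360 cytoplasmic, at -0.88 (SE 0.17, DESeq2 adjusted p 9.53e-07). The paralogues therefore went opposite ways, POLR3GL 3.70-fold higher in the cytoplasm and POLR3G 1.84-fold higher in the nucleus, and the spread of libraries did not bridge either gap. POLR3C and POLR3F, which join POLR3G or POLR3GL in an initiation subcomplex, were at 1.32 and 0.14. POLR3F had 224 and 228 against 238 and 260 normalised counts and was not called (DESeq2 adjusted p 0.603), nor on equal totals, at -0.52. POLR3D and POLR3E form a dimer, and POLR3D was at 1.99. POLR3E had 2364 and 2379 against 2617 and 2775, a log2 fold change of 0.18 (DESeq2 adjusted p 0.153). On equal totals POLR3E moved to -0.48 and was called nuclear. The zinc-ribbon subunit POLR3K was at 1.60. CRCP, a subunit of the enzyme that carries another symbol and is not a member, had 685 and 681 against 1267 and 1130 normalised counts, at 0.81, and was at 0.15 and not called on equal totals.

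In the Mediator head, 6 of 8 genes were cytoplasmic, 1 was nuclear and 1 was not called, with a median log2 fold change of 1.71. MED11 had 55.9 and 65.6 normalised counts in the nuclear libraries and 502 and 408 in the cytoplasmic ones, 7.49-fold higher in the cytoplasm. Its log2 fold change of 2.91 (SE 0.24, DESeq2 adjusted p 1.18e-32) was the highest of the MED genes. MED8, with 68.6% of its locus covered by other genes, had 282 and 289 against 1480 and 1440, at 2.35. MED19 had 123 and 105 against 482 and 400, at 1.95, and MED18 had 116 and 118 against 451 and 448, at 1.94. The nuclear and cytoplasmic libraries were far apart in all 4 genes, whose loci are under 10 kb. MED22 and MED20 were at 1.49 and 1.31, and MED6 at 0.26 was not called (DESeq2 adjusted p 0.129), nor on equal totals, at -0.41. MED17, a central architectural subunit of the head, was the nuclear one at -0.43 (SE 0.15, DESeq2 adjusted p 8.47e-03). MED17 had 831 and 786 nuclear against 593 and 611 cytoplasmic normalised counts, and its call was lost when any library was left out.

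The middle module and its scaffold gave 4 cytoplasmic and 3 nuclear genes of 9, with 2 not called. MED14, the scaffold on X, was nuclear with 4155 and 4342 against 2448 and 2896 normalised counts, at -0.67. MED4 and MED26 were nuclear at -0.87 and -0.76, and MED26, which contacts elongation factors, had 735 and 501 nuclear against 354 and 378 cytoplasmic normalised counts. Without nuclear library A, the high one, MED26 was at -0.45 and not called. MED9 and MED7 were cytoplasmic at 1.30 and 1.09, MED7 with 99.7% of its locus covered by other genes and, on equal totals, at 0.43 and not called. MED1, the subunit that binds nuclear receptors, and MED21 were both at 0.59, and both were at -0.07 and not called on equal totals. MED10 was not called at 0.45 (DESeq2 adjusted p 0.0717), nor on equal totals, at -0.21. MED31 was the member whose fractions overlapped, with 269 and 219 nuclear and 238 and 246 cytoplasmic normalised counts (log2 fold change -0.01, DESeq2 adjusted p 0.963). On equal totals MED31 was at -0.68 and called nuclear.

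Tail subunits, which receive activators, were split 2 to 2 with 1 not called. MED23 had 2216 and 2427 normalised counts in the nuclear libraries and 992 and 1221 in the cytoplasmic ones, a log2 fold change of -1.07 (SE 0.14, DESeq2 adjusted p 4.08e-14). MED15 had 2580 and 2252 against 1228 and 1256, at -0.96 (SE 0.13, DESeq2 adjusted p 1.93e-13). Each was about as far to the nucleus as the other, with fractions well apart. MED16 was cytoplasmic at 1.20, MED24 at 0.45, and MED25 at 0.16 was not called (DESeq2 adjusted p 0.331). On equal totals MED24 was at -0.22 and MED25 at -0.50, the latter then called nuclear. MED24 also lost its call without nuclear library A or without cytoplasmic library B, at 0.38 in each case.

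MED27 to MED30, grouped here as the upper tail, went to both sides. MED29 had 275 and 329 nuclear against 1504 and 1358 cytoplasmic normalised counts, at 2.25 (SE 0.16, DESeq2 adjusted p 2.13e-46). MED27 had 3482 and 2859 nuclear against 1026 and 1214 cytoplasmic, at -1.50 (SE 0.14, DESeq2 adjusted p 1.05e-25). The gap between library groups was wide in both genes and opposite in direction. MED30 and MED28 were at 1.32 and 0.99, and MED28 was at 0.33 and not called on equal totals. MED27 spans 227 kb on chromosome 9 and MED29 9.34 kb on chromosome 19.

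The kinase module was nuclear in 3 of its 4 member genes, MED13, MED13L and MED12L, with spans of 123, 320 and 352 kb. Of tested protein-coding genes, 60.2% of those spanning 107 to 189 kb and 78.0% of the longer ones were called nuclear. MED12 and MED12L are paralogues that activate the module's kinase, and MED13 and MED13L are paralogues that tie the module to the core. MED12 had 2058 and 2223 nuclear against 3392 and 3662 cytoplasmic normalised counts, a log2 fold change of 0.72 (SE 0.12, DESeq2 adjusted p 1.73e-09). MED12L had 4760 and 3950 against 773 and 803, 5.53-fold higher in the nucleus and at -2.47 (SE 0.13, DESeq2 adjusted p 2.23e-76), the lowest value of all members. These paralogues lay on opposite sides with no overlap of libraries, although MED12 at 0.06 was not called on equal totals. MED13 had 6736 and 7212 nuclear against 4851 and 5398 cytoplasmic normalised counts, at -0.44 (SE 0.11, DESeq2 adjusted p 1.39e-04). MED13L had 11592 and 10727 against 4634 and 4981, at -1.22 (SE 0.11, DESeq2 adjusted p 5.63e-29). Both of this pair were nuclear, and MED13 lost its call, at -0.37, without cytoplasmic library A. MED12L spans 352 kb with a longest intron of 156 kb, and other genes cover 45.0% of its locus. MED12 spans 25.6 kb, though both MANE Select transcripts have 45 exons.

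The partners of the kinase module, which are no members, split in the same ways. CDK8, the kinase, had 2177 and 1929 nuclear and 749 and 876 cytoplasmic normalised counts, at -1.34 (SE 0.14, DESeq2 adjusted p 4.12e-21). Its paralogue CDK19 had 3627 and 3156 against 1082 and 1044, at -1.67 (SE 0.13, DESeq2 adjusted p 2.80e-39). CCNC, cyclin C, had 1219 and 1386 against 2119 and 2332, at 0.77 (SE 0.13, DESeq2 adjusted p 6.93e-09). The kinases were therefore nuclear and their cyclin cytoplasmic on the authors' scale, with CCNC at 0.11 and not called on equal totals. CDK8 and CDK19 span 167 and 206 kb and CCNC 26.4 kb.

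**Figure D2:**
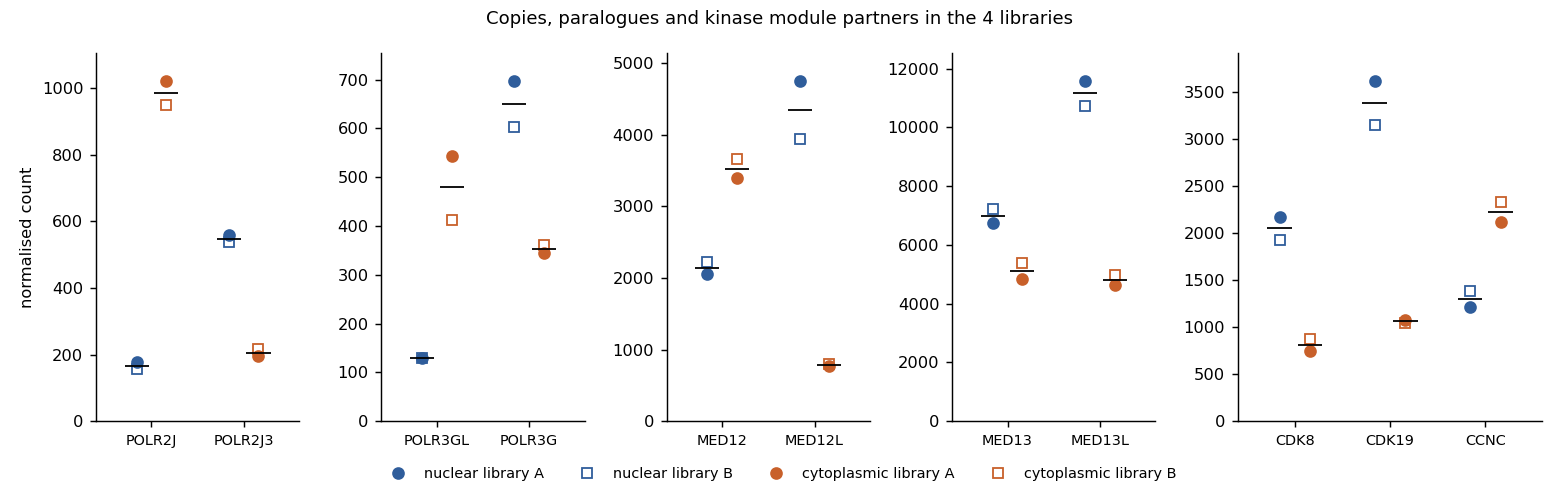
Normalised counts in the 2 nuclear (blue) and 2 cytoplasmic (orange) libraries, A filled and B open, for the POLR2J copies, the paralogue pairs POLR3GL and POLR3G, MED12 and MED12L, and MED13 and MED13L, and the kinase module partners; black lines are means of 2 libraries and each panel has its own axis from 0. POLR2J, POLR3GL, MED12 and CCNC are higher in the cytoplasm, and POLR2J3, POLR3G, MED12L, MED13, MED13L, CDK8 and CDK19 in the nucleus.

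Library by library, 61 of the 62 members had both libraries of a fraction above both of the other, 48 with the cytoplasm higher and 13 with the nucleus higher. Such separation was common here, found with the cytoplasm higher in 53.5% and with the nucleus higher in 40.0% of 1098 protein-coding genes taken at every 10th place among those with means of 100 to 8000. It therefore says little of the members themselves. The ratio of library A to library B over members had a median of 0.984 in the nucleus (0.767 to 1.47) and 0.943 in the cytoplasm (0.754 to 1.64). In 7 members the libraries of a fraction differed by over 25%, namely MED4, MED20, MED26, POLR1G, POLR2K, POLR2L and POLR3GL.

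**Figure D3:**
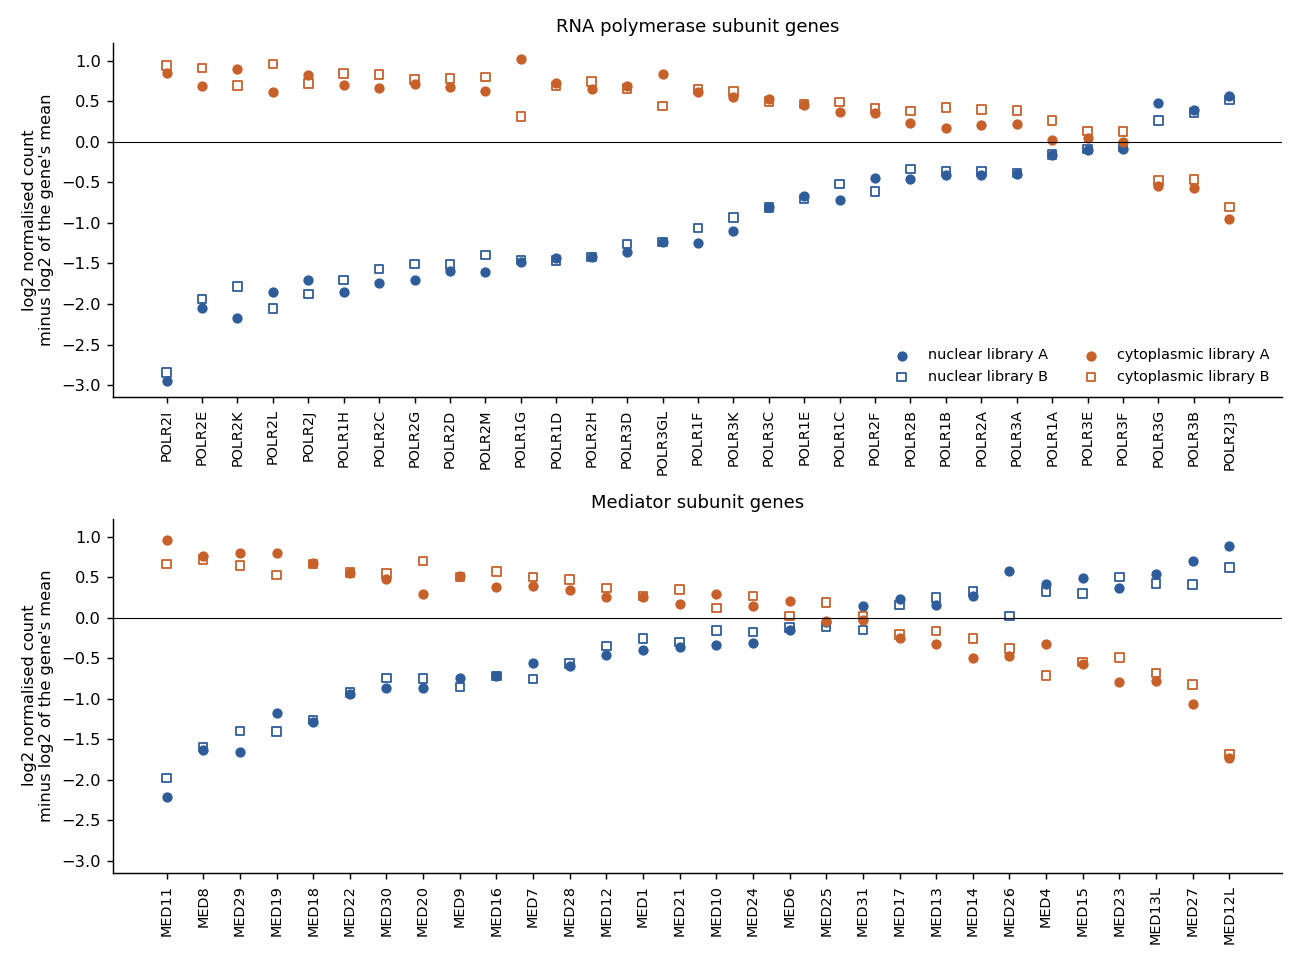
Log2 normalised count of each library minus the log2 of the gene's mean over the 4 libraries, for 31 POLR genes (top) and 30 MED genes (bottom), ordered by fold change; blue is nuclear, orange cytoplasmic, filled circles are libraries A and open squares libraries B. The orange and blue points cross between POLR3F and POLR3G in the upper panel and at MED31 in the lower, and POLR1G shows the widest gap between replicates (597 against 364 normalised counts).

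Gene length followed these differences. Since the authors counted introns with exons, gene span (first to last annotated base) was set beside the fold change. Spearman's rho of span with log2 fold change was -0.73 across the 62 members, -0.70 across POLR and -0.83 across MED genes, and -0.60 across 15329 tested protein-coding genes with a span. These correlations are across genes, which share the libraries and are not independent replicates, and no p is attached to them. With exonic length in place of span rho was -0.55 across members, and with intron length -0.69. POLR genes were shorter, with a median span of 16.2 kb against 23.8 kb for MED and 34.9 kb for tested protein-coding genes.

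Sorted by span, the calls of the families were close among short genes and differed among long ones, which was not tested. Under 10 kb, 12 of 12 POLR and 6 of 8 MED genes were cytoplasmic and none was nuclear, beside 64.2% and 5.34% of protein-coding genes of that length. The medians there were 2.48 for POLR, 1.95 for MED and 1.70 for protein-coding genes. From 10 to 20 kb, 5 of 7 POLR and 4 of 5 MED genes were cytoplasmic (protein-coding genes, 54.1%). From 20 to 50 kb, 3 of 5 and 6 of 9 were cytoplasmic (39.9%). At 50 kb or longer, 6 of 8 POLR genes were cytoplasmic and 1 was nuclear, while 8 of 8 MED genes were nuclear, beside 11.8% cytoplasmic and 54.0% nuclear among protein-coding genes. The 8 long MED genes were MED12L, MED13, MED13L, MED14, MED15, MED23, MED26 and MED27. All stayed nuclear on equal totals, a scale that lowers every fold change and so could not undo a nuclear call. Of the 8 long POLR genes, POLR1D and POLR2M were cytoplasmic on equal totals and POLR1A and POLR3B nuclear. POLR2B, POLR3A, POLR1C and POLR2F were then not called.

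The length class of some loci depends on how they are drawn. POLR1D, POLR2F, POLR2M and POLR1C have loci of 123, 89.3, 76.1 and 52.7 kb, but their MANE Select transcripts span 1.56, 15.6, 10.8 and 4.42 kb. Among MED genes, the loci of MED21, MED4 and MED7 are 43.8, 41.8 and 21.6 kb and their MANE Select transcripts 8.12, 19.4 and 5.44 kb. Counted by the MANE Select transcript, 4 POLR genes (POLR1A, POLR2B, POLR3A and POLR3B) and 7 MED genes reached 50 kb. Of those 4, POLR2B and POLR3A were cytoplasmic, POLR1A was not called and POLR3B was nuclear on the authors' scale. On equal totals none of them was cytoplasmic. POLR2A had no MANE Select transcript in the annotation and was left out of this count, with a locus of 30.3 kb.

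**Figure D4:**
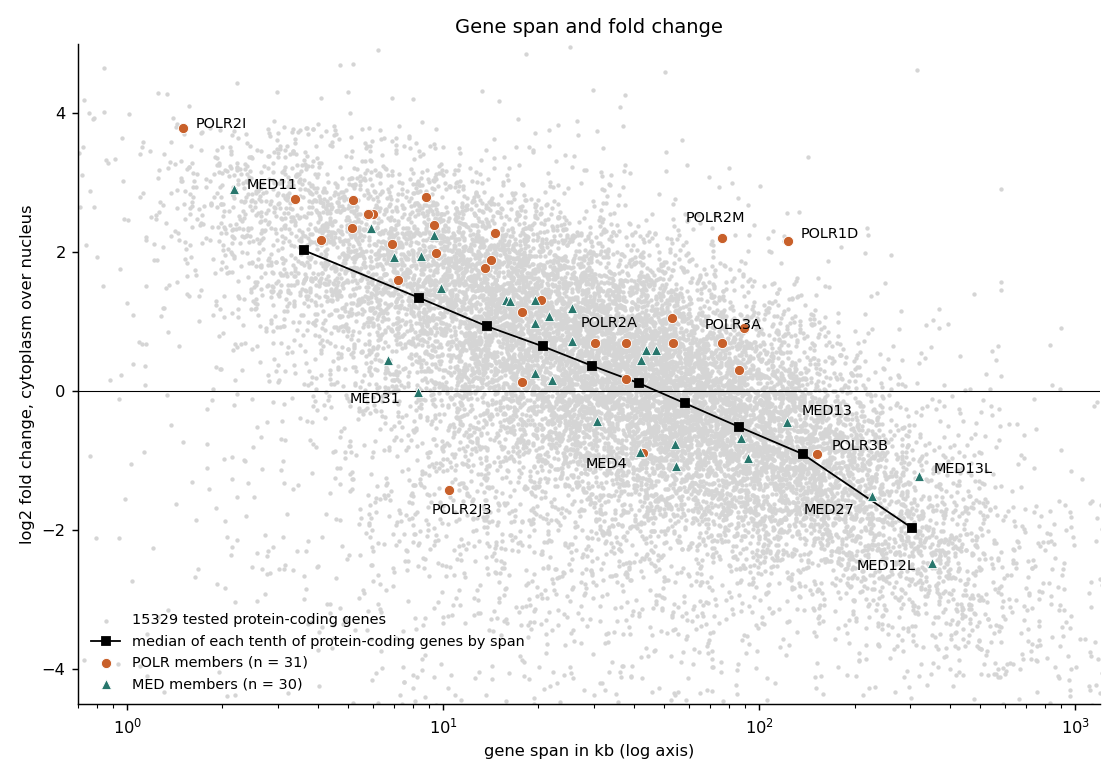
Log2 fold change of cytoplasm over nucleus against gene span in kb (log axis) for 31 POLR members (orange circles), 30 MED members (green triangles) and 15329 tested protein-coding genes (grey); black squares are medians of 10 equal bins of protein-coding genes by span. The medians fall from 2.03 to -1.97, POLR2J3 lies well under the line at 10.5 kb, and POLR1D and POLR2M lie well over it.

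Each member was then set against the median of the tested protein-coding genes in its bin of span, of 10 bins with 1532 or 1533 genes each. Of the POLR genes, 29 of 32 lay above their bin's median and 3 below, with a median distance of 0.73 on the log2 scale. Of the MED genes, 19 of 30 lay above and 11 below, with a median distance of 0.36. By construction a bin has as many genes above its median as below. The 3 POLR genes below were POLR2J3 (-2.77), POLR3G (-1.01) and POLR3F (-0.51), and the distances were largest above for POLR1D (3.06) and POLR2M (2.73). With bins of MANE Select span, 26 of 31 POLR and 17 of 30 MED genes lay above, and POLR1D and POLR2M came to 0.11 and 1.25. In the bins of gene span, the MED genes farthest below were MED31 (-1.36), MED4 (-0.99), MED23 (-0.90), MED10 (-0.89) and MED17 (-0.80). Of these MED31 and MED10 have loci under 10 kb. In the bins of MANE Select span MED4 was lowest of the MED genes at -1.60, and MED17 was at -0.62. There MED21 was at -0.75, against 0.47 in its bin of gene span. Of the long kinase module genes, MED13L and MED13 lay above their bins of gene span by 0.76 and 0.46, and MED12L was at -0.49.

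By module, all 7 shared subunits and all 6 of RNA polymerase I lay above their bin's median, as did 8 of 9 of RNA polymerase II and 8 of 10 of RNA polymerase III. In Mediator, 6 of 8 head, 4 of 9 middle, 2 of 5 tail, 4 of 4 upper tail and 3 of 4 kinase module genes lay above. The median distance was 1.22 for shared subunits, 0.49 for the head, -0.16 for the middle and -0.45 for the tail. All 6 large subunits lay above their bin's median, at a median distance of 0.69. Of the other 26 POLR genes 23 lay above, at a median distance of 0.73. With bins of MANE Select span, 6 of 7 shared subunits lay above, at a median distance of 0.70, with POLR1C below its bin and POLR2F and POLR1D above theirs by 0.18 and 0.11. In the same bins 7 of 8 RNA polymerase II and 7 of 10 RNA polymerase III genes lay above, and 2 of 9 genes of the middle module, at a median of -0.65. The other modules kept their numbers of genes above and below.

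Factors that work with the polymerases were looked up from a list of 34 genes, all tested. Of 18 general factors of RNA polymerase II, 6 were cytoplasmic, 4 nuclear and 8 not called, with a median of 0.16. GTF2A2, the small subunit of TFIIA, and GTF2F1, the large subunit of TFIIF, were at 2.66 and 2.52, while MNAT1, of the TFIIH kinase, was at -3.06. Of 6 RNA polymerase I factors, 2 were cytoplasmic and 4 nuclear, with UBTF at 1.74 and TAF1B at -1.08. Of 10 RNA polymerase III factors, 7 were cytoplasmic, 2 nuclear and 1 not called, with GTF3A at 3.26 and BRF1 at -0.61. Over the 34 factors 15 were cytoplasmic and 10 nuclear, at a median of 0.32, which lies below the medians of both POLR and MED genes. The factors were also longer, with a median span of 33.5 kb against 16.2 kb for POLR and 23.8 kb for MED genes. They were not set against bins of span. These are shares of 44.1% and 29.4%, beside 35.6% and 28.4% of tested protein-coding genes. On equal totals 7 of the 34 factors were cytoplasmic and 16 nuclear, beside 22.4% and 42.6% of tested protein-coding genes.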

How the data were processed

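Reads of 4 libraries, 2 nuclear and 2 cytoplasmic, were aligned to hg38 by the authors with STAR and counted per gene with featureCounts 2.0.2, introns with exons. Their annotation was a GENCODE release with NCBI-only genes added, and overlapping stretches and readthrough transcripts removed. How read pairs that match several places were counted is not given in the sources used here. The deposited mean normalised count is a signal averaged by the authors over all 4 libraries with DESeq2 size factors. The deposited log2 fold change and its standard error, on the log2 scale, the Wald score, and the p-value and adjusted p-value are the authors' DESeq2 results, used as deposited. The count test intended for counts per library was replaced by them. The score differed from fold change over error by at most 1.79e-07, and recomputed Benjamini-Hochberg values from the deposited ones by at most 0.845%.

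Calls used an adjusted p of at most 0.01 over all 23333 tested genes. Members, lists and subgroups were chosen with earlier results of these data known. The values of 1 member, which is kept in all counts, medians and correlations, are not reported here. Full values were given for the 5 highest and 5 lowest fold changes of POLR and of MED genes, the largest and shared subunits, the POLR2J copies, paralogue pairs and the kinase module with its partners. The authors' p-values rest on only 2 libraries a fraction and do not measure the spread of a gene's own libraries alone. MED18, with close libraries (116 and 118 nuclear, 451 and 448 cytoplasmic normalised counts), had a standard error of 0.21. POLR1G, with the widest gap between libraries (597 and 364 cytoplasmic normalised counts), had one of 0.25.

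Library counts were rebuilt. A gene's mean is a sum of 4 whole counts times 4 steps, and 12824 genes with means of at most 5 fitted the steps within 6.25e-10. For 66 genes the combination was kept whose DESeq2-like negative binomial fold change, at the dispersion giving the authors' standard error, matched theirs within 1e-07. The largest miss was 7.71e-08 and the smallest of a next best combination 1.77e-07. Combinations were searched within 4% of each fraction's mean and 50% between libraries. The same step gave the counts of 1098 of 1112 genes used as background. Total counts assume equal composition of a fraction's libraries.

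Spans, exons and MANE Select transcripts came from GENCODE 44 on hg38, a later annotation than the authors' (99.95% of tested protein-coding genes matched). Scripts ran in Python 3.11.15 with NumPy 2.4.6, SciPy 1.17.1 and pandas 2.3.3, and were tested on simulated data. Alternatives were the scale between fractions, thresholds, members, length measures and leaving out each library.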

Additional observations from a re-analysis of the deposited data

How the results depend on the processing

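Scaling to equal library totals, which shifts all log2 fold changes by -0.66, moved POLR genes called nuclear from 3 to 5, MED genes called cytoplasmic from 16 to 10, and the POLR median from 1.69 to 1.03, and turned the MED median from 0.52 to -0.14. It turned the sign of MED1 and MED21 (both -0.07) and MED24 (-0.22), which lost their calls. MED25 (-0.50), POLR1A (-0.36) and POLR3E (-0.48), not called on the authors' scale, turned and were called nuclear. MED6 (-0.41), MED10 (-0.21) and POLR3F (-0.52) turned and were called on neither scale. MED31 (-0.68) gained a nuclear call, and 9 other members kept their sign but lost their call. Bonferroni adjustment left 6 of 10 nuclear MED calls. Weighting by inverse variance gave a POLR median of 1.32 and a gap between families of 0.87. With exonic length rho was -0.55 across all members and -0.55 across MED genes. Centring on the protein-coding median (a shift of -0.11) changed none of the 62 members' calls. Leaving out 1 library at a time, added after the data were seen with each gene's dispersion held, gave 26 to 27 cytoplasmic and in each case 3 nuclear POLR genes, and 15 to 16 cytoplasmic and 8 to 9 nuclear MED genes. The medians were then 1.61 to 1.78 for POLR, 0.45 to 0.59 for MED and 1.10 to 1.20 for the gap. Spans of MANE Select transcripts were also added later. No paired analysis was possible because the table does not name which library is replicate 1 or 2. The planned count tests, with another normalization, a filter on low counts, a replicate block or a library left out, were not run, since counts of single libraries were rebuilt for part of the genes only. The members with under 100 counts in a library, MED11 and MED7, had standard errors of 0.24 and 0.29.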
